A study of Rattus norvegicus with 9 samples.

Results

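The cytochrome P450s, glutathione transferases and other families that oxidise, reduce and conjugate small molecules were measured in cultures of isolated rat ureteric bud. Their probe sets were taken by gene symbol: P450s other than Cyp51, soluble and microsomal glutathione transferases, UDP-glucuronosyltransferases (Ugt), sulfotransferases (Sult), aldehyde dehydrogenases (Aldh), aldo-keto reductases (Akr), epoxide hydrolases (Ephx) and flavin monooxygenases (Fmo). The rule found 136 of the 15866 probe sets on the array that are not controls, covering 119 of the 10411 genes that a single symbol names, and 9 probe sets with several symbols. Of the 136, 59 exceeded the 40th percentile of the array's signals on 3 or more of the 9 arrays and were tested, and they stood for 55 genes and 3 probe sets with several symbols. The 77 others are described by their levels alone.

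Buds, the epithelial outgrowths that form the collecting ducts of the kidney, were taken from Sprague-Dawley rat embryos at embryonic day 13 and grown for 4 days in a gel made of Matrigel with reduced growth factors (50%) and of type 1 collagen (50%). The HRG cultures received 500 ng/ml of human recombinant heregulin alpha, which binds receptors of the ErbB family. The PTN cultures received approximately 3 µg/ml of pleiotrophin, a growth factor that binds heparin, which had been purified from BSN conditioned medium. The BSN cultures received that conditioned medium itself, which comes from a metanephric mesenchymal cell line. FGF1 at 250 ng/ml and GDNF at 125 ng/ml were present in every culture, and no group received these factors alone, so a rise in one medium cannot be told apart from a fall in the other. RNA of 3 buds made a sample, was amplified in a double in vitro transcription and was hybridised to an Affymetrix rat RAE230A array, with 3 arrays per medium. The series title places PTN among the branching cultures and the sample descriptions call it non-branching, so the groups are named here by medium. In such bulk samples, fewer cells of a type and less RNA per cell cannot be told apart.

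Detoxification is usually described in phases. Phase 1 enzymes, mainly P450s, add or expose a reactive group, and aldehyde dehydrogenases and aldo-keto reductases then clear the aldehydes and ketones that result. Phase 2 transferases attach glutathione, glucuronic acid or sulfate, and the conjugates leave the cell through export pumps. Many of these genes are induced through 2 sensors: the aryl hydrocarbon receptor (AhR), which binds DNA with its partner Arnt at the core GCGTG, and Nrf2, which is held by Keap1 and binds antioxidant response elements of the form TGACNNNGC. Some members also serve development, since Aldh1a enzymes make retinoic acid and several P450s make or break down steroids and vitamins.

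The arrays of one medium correlated at 0.946 to 0.979 over the tested probe sets (Pearson's r of log2 signals, across probe sets), and arrays of different media at 0.882 to 0.937. The 40th percentile lay between 580.1 and 788.2 signal units. The ratio of 3′ to 5′ signal for beta-actin, a sign of how much of each transcript was copied, was 18.6 to 29.6 in HRG, 15.3 to 18.1 in PTN and 28.0 to 37.8 in BSN. For GAPDH it was 2.01 to 3.49 in HRG, 2.97 to 6.85 in PTN and 3.75 to 5.83 in BSN. With 3 arrays against 3, an exact two-sided permutation test cannot go below p = 0.1, and after adjustment over the 6 comparisons p was 0.2 to 0.8. The beta-actin ratio was lowest in PTN, and its part in the results below was not tested. All fold changes below are on the scale log2(signal + 16), and all adjusted p-values are from limma with Benjamini-Hochberg adjustment over 10106 probe sets, with 0.05 as the threshold.

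The stretches of 300 bases around the start sites of 4 members are shown because Akr1b8 had the largest log2 change of the members, and Gstp1, Gsta3 and Gstm1 are preset markers that stand for 3 transferase classes. They come from RefSeq on build GRCr8, run from 250 bases before the start to 50 after it, and are written 5′ to 3′ along the gene. Akr1b8 lies at chr4:63964171-63964470 on the plus strand, Gstp1 at chr1:210769656-210769955 on the minus strand, Gsta3 at chr9:31154739-31155038 on the plus strand, as 1 of 2 entries for that gene, and Gstm1 at chr2:198343334-198343633 on the minus strand. Capitals mark matches, on either strand, to the core GCGTG, which in these stretches is found as its reverse complement, to TGACNNNGC and to the TATA box, searched for as TATAAA.
Akr1b8: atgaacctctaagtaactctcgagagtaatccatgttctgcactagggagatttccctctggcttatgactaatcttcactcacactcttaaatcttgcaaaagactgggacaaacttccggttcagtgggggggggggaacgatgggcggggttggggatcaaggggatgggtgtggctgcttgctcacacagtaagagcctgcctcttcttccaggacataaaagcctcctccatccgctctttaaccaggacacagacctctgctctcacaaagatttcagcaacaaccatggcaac
Gstp1: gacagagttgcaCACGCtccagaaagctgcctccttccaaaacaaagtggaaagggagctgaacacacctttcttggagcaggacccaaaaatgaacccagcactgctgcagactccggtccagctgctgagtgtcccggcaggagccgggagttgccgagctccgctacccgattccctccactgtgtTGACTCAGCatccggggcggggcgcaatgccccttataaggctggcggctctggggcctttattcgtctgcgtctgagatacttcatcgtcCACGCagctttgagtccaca
Gsta3: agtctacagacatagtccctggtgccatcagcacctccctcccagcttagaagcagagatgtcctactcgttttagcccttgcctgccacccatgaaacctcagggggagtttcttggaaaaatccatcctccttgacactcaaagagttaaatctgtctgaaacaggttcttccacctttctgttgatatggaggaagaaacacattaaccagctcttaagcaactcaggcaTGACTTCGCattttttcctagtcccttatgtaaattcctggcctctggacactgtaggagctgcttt
Gstm1: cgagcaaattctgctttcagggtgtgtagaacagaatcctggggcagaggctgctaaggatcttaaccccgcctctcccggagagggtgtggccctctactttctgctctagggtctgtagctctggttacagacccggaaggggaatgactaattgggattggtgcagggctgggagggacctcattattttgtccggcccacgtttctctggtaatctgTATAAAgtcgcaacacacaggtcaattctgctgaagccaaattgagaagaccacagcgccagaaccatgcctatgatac

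In the Gstp1 stretch TGACTCAGC began 61 bases before the start, and GCGTG was matched on the opposite strand at position -238 and again just downstream of the start. The Gsta3 stretch held TGACTTCGC close to the start, and the Gstm1 stretch held TATAAA at the distance from the start where a TATA box usually lies. The Akr1b8 stretch held none of these letters. Promoter entries were found for 47 of the 55 tested genes, 49 entries in all. TGACNNNGC was present in 12 of the 49 (24.5%), against 12.1% of 33469 rat promoters of the same length. GCGTG was present in 13 (26.5%) against 29.7%, the longer TNGCGTG, whose matches all contain GCGTG, in 3 (6.12%) against 4.89%, and TATAAA in 7 (14.3%) against 14.2%. Of 14 promoters of 13 genes that were lower in PTN than in both other media, 7 held GCGTG and 3 held TGACNNNGC. The longer TNGCGTG was in 1 of the 14 and TATAAA in 1. The shares of all rat promoters given above, 29.7% for GCGTG and 4.89% for TNGCGTG, apply here too, and no difference was tested. A match describes letters only, and no binding was measured.

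More members passed in the comparisons with PTN than between HRG and BSN. Of the 59 tested probe sets 28 (47.5%) passed between HRG and PTN, 25 of them higher in HRG (42.4%) and 3 lower (5.08%). Over all 10106 tested probe sets 25.8% passed in that comparison, 14.1% higher and 11.7% lower. Between PTN and BSN 20 members (33.9%) passed, 18 lower in PTN (30.5%) and 2 higher (3.39%), against 22.5% of all tested probe sets, 13.4% lower and 9.15% higher. Between HRG and BSN 11 members (18.6%) passed, 8 higher in HRG (13.6%) and 3 lower (5.08%), against 15.8% of all, 6.92% higher and 8.86% lower. Without HRG replicate 1 the members higher in HRG than in BSN numbered 5 in place of 8, and with the replicate block those lower numbered 5 in place of 3. In HRG against BSN the share for both directions together, 18.6%, lies near its background of 15.8%. By direction the share higher in HRG than in BSN, 13.6%, lies above its 6.92%, on 8 members. The shares of members higher in HRG than in PTN and lower in PTN than in BSN lie well above theirs.

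The HRG against PTN and PTN against BSN comparisons share the PTN arrays, so their calls are not independent. Both passed, with PTN lower, for 17 members (28.8%), against 6.41% of all tested probe sets. Akr1b8, Akr7a3 and a Ugt1a probe set among them had every PTN array under the 40th percentile. They were tested only because HRG and BSN arrays exceeded it, so their place in this count and the next is not independent of that limit. The same limit applied to all tested probe sets. In 19 members (32.2%) all 3 PTN arrays lay below all 6 others, which held for 12.1% of all tested probe sets, and in 1 member (1.69%) all lay above, against 8.97%. PTN had the lowest mean in 43 members (72.9%), against 46.5% of all. The median log2 change over the members was 0.31 for HRG against PTN, -0.35 for PTN against BSN and 0.02 for HRG against BSN, beside 0.08, -0.11 and -0.04 over all tested probe sets.

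**Figure D1:**
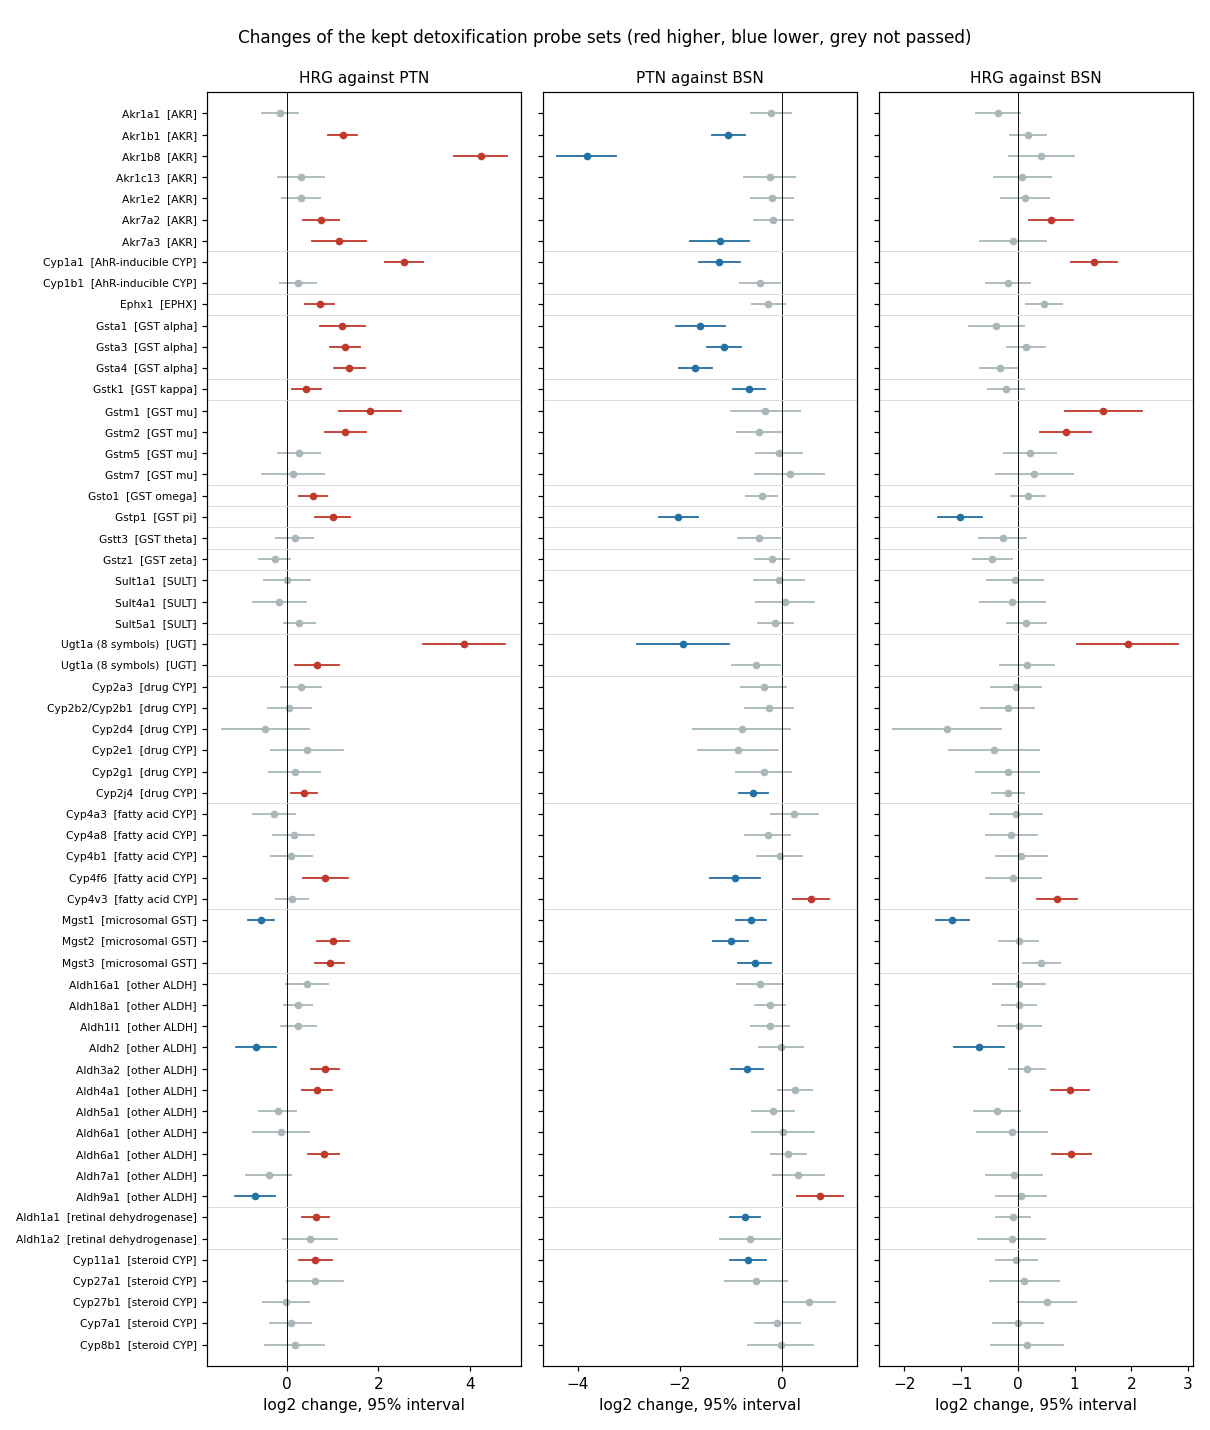
Log2 change with its 95% interval (x axis) for each of the 59 tested probe sets (y axis, ordered by enzyme group), with a panel for each comparison; red points passed as higher, blue points passed as lower and grey points did not pass, and Aldh6a1 has 2 probe sets. The 25 red points of the left panel and the 18 blue points of the middle panel include all 3 alpha-class transferases.

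Part of this contrast moved with the scaling. PTN arrays had the lowest medians, and centring each array on its median moved the median change of all tested probe sets to -0.03 in HRG against PTN, to 0.1 in PTN against BSN and to 0.06 in HRG against BSN. The members then stood at 0.2, -0.14 and 0.12. After centring, 21 members (35.6%) were higher and 3 lower in HRG than in PTN, against 9.33% higher and 14.4% lower of all, and 13 (22.0%) were lower and 3 higher in PTN than in BSN, against 6.38% lower and 15.8% higher of all. In HRG against BSN 10 members were higher and 2 lower after centring, with 8.46% higher and 6.16% lower of all. With quantile normalization the members' medians were 0.21, -0.18 and 0.08, beside 0.02, -0.01 and 0.01 for all tested probe sets. Median centring moves every probe set of an array by the same amount, so it could not change the members' shift relative to all tested probe sets. With quantile normalization, which could change it, that shift kept its direction in each comparison.

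**Figure D2:**
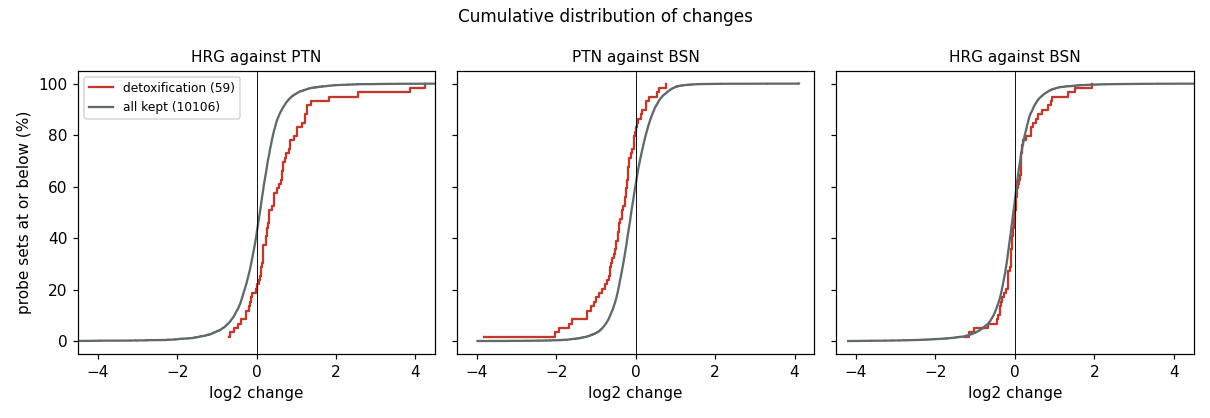
Share of probe sets at or below each log2 change (y axis in percent, x axis log2 change) for the 59 tested detoxification probe sets in red and all 10106 tested probe sets in grey, per comparison. The red line lies right of the grey one in HRG against PTN (medians 0.31 and 0.08) and left of it in PTN against BSN (medians -0.35 and -0.11), and the lines run close together in HRG against BSN.

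Glutathione transferases, which join glutathione to electrophiles and to products of lipid peroxidation, made up 10 of the 25 probe sets that were higher in HRG than in PTN. With the microsomal members, 10 of 15 tested were higher and 1 lower in HRG than in PTN, 8 were lower and none higher in PTN than in BSN, and 2 were higher and 2 lower in HRG than in BSN. The median log2 change of the 15 was 0.94 in HRG against PTN, -0.53 in PTN against BSN and 0.02 in HRG against BSN. Over all tested probe sets the medians were 0.08, -0.11 and -0.04. For this and each family below, the shares of all tested probe sets given above stand beside the counts.

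All 3 tested alpha-class transferases were lower in PTN than in both other media. Gsta4, which conjugates the lipid peroxidation product 4-hydroxynonenal, had signals of 13205, 14353 and 16529 in HRG, 6532, 5158 and 5372 in PTN and 15188, 19901 and 20361 in BSN. The PTN arrays lay below all others, and HRG and BSN overlapped. Gsta4 was 2.58-fold higher in HRG than in PTN (adjusted p = 3.83e-05) and 3.23-fold lower in PTN than in BSN (adjusted p = 2.21e-05). Gsta3, known in mouse for conjugating aflatoxin epoxide, had 6859, 7027 and 7085 in HRG, 3261, 2906 and 2534 in PTN and 5831, 7782 and 5555 in BSN. It showed the same separation, 2.41-fold higher in HRG than in PTN (adjusted p = 6.89e-05) and 2.18-fold lower in PTN than in BSN (adjusted p = 0.000394). Gsta1, an abundant liver form that also reduces lipid peroxides, had 5527, 7708 and 6285 in HRG, 1886, 3343 and 3375 in PTN and 10129, 7048 and 8365 in BSN. It was 2.32-fold higher in HRG than in PTN (adjusted p = 0.00167) and 3.03-fold lower in PTN than in BSN (adjusted p = 0.000475). HRG and BSN arrays overlapped for each of the 3 genes and none passed between those media (adjusted p 0.189 to 0.595). Gsta3 and Gsta1 are neighbours on chromosome 9 with no protein-coding gene between them, and probe sets of such close relatives can read each other's transcripts.

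Gstp1, the pi-class enzyme, also separated HRG from BSN. Its signals were 8565, 6796 and 7494 in HRG, 2791, 4294 and 4444 in PTN and 14440, 14719 and 17157 in BSN, so that the 3 media did not overlap and stood in the order BSN, HRG, PTN. Gstp1 was 2.01-fold higher in HRG than in PTN (adjusted p = 0.00123), 4.08-fold lower in PTN than in BSN (adjusted p = 1.85e-05) and 2.03-fold lower in HRG than in BSN (adjusted p = 0.00166). Gstp1 is known in rat liver as a marker of preneoplastic foci.

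The mu class followed another order. Gstm1, a main mu-class enzyme of liver, had signals of 3864, 3582 and 2289 in HRG, 1606, 780 and 550 in PTN and 1130, 1131 and 1058 in BSN. HRG lay above every array of the other media, whereas PTN and BSN overlapped because PTN replicate 1 was higher than the other PTN arrays. Gstm1 was 3.53-fold higher in HRG than in PTN (adjusted p = 0.000966) and 2.84-fold higher in HRG than in BSN (adjusted p = 0.00509). PTN against BSN did not pass (log2 change -0.32, 95% interval -0.99 to 0.36, adjusted p = 0.491), and without PTN replicate 1 it passed with a log2 change of -0.74 (adjusted p = 0.0233). Gstm2, the gene next to Gstm1 on chromosome 2, had 1676, 1807 and 1423 in HRG, 516, 792 and 710 in PTN and 915, 738 and 1083 in BSN. HRG again lay above all other arrays, and PTN and BSN overlapped. Gstm2 was 2.42-fold higher in HRG than in PTN (adjusted p = 0.000682) and 1.79-fold higher in HRG than in BSN (adjusted p = 0.0146), and the HRG against BSN call ended when replicate 2 of BSN, or replicate 1 or 2 of HRG, was left out (adjusted p 0.0501 to 0.0706). The other 2 tested mu-class genes, Gstm5 and Gstm7, named after their values were seen, did not pass in any comparison.

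The 3 microsomal transferases, membrane proteins of the glutathione and leukotriene pathways, were all lower in PTN than in BSN but differed in HRG. Mgst1, which protects membranes from lipid peroxides, had 2657, 3186 and 3226 in HRG, 4843, 4351 and 4165 in PTN and 6987, 6160 and 7053 in BSN. The media did not overlap, and HRG was the lowest: 2.23-fold lower than BSN (adjusted p = 8.67e-05) and 1.47-fold lower than PTN (adjusted p = 0.00844). PTN was 1.51-fold lower than BSN (adjusted p = 0.00787), a call that did not pass after median centring (adjusted p = 0.0731). Mgst2, which can also make leukotriene C4, had 2202, 2134 and 2397 in HRG, 1224, 1004 and 1090 in PTN and 2123, 1888 and 2716 in BSN. It was 2.02-fold higher in HRG than in PTN (adjusted p = 0.000491) and 2.0-fold lower in PTN than in BSN (adjusted p = 0.00106), with HRG and BSN overlapping. Mgst3 averaged 3805 ± 442 in HRG, 1973 ± 165 in PTN and 2860 ± 403 in BSN (SD, n = 3 each). It was 1.92-fold higher in HRG than in PTN (adjusted p = 0.000564), and its 1.44-fold lower level in PTN than in BSN (adjusted p = 0.0238) did not pass on either other scale (adjusted p = 0.109 with median centring and 0.0683 with quantile normalization) or without any of BSN replicate 1, BSN replicate 3, PTN replicate 2 or PTN replicate 3. HRG against BSN did not pass (adjusted p = 0.0836), but did after median centring (adjusted p = 0.0201).

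Of the classes with a single tested gene, Gsto1, the omega-class enzyme that reduces dehydroascorbate and methylated arsenic, averaged 15509 ± 1940 in HRG, 10430 ± 362 in PTN and 13726 ± 2030 in BSN (SD, n = 3 each). It was 1.48-fold higher in HRG than in PTN (adjusted p = 0.00956), and PTN against BSN did not pass (adjusted p = 0.063, and 0.0319 with quantile normalization). Gstk1, the mitochondrial and peroxisomal kappa-class enzyme, was 1.56-fold lower in PTN than in BSN (adjusted p = 0.00829). Its 1.35-fold higher level in HRG than in PTN (adjusted p = 0.0471) rested on most arrays, since leaving out any of 7 of them gave an adjusted p of 0.0583 to 0.168, and it did not pass after median centring (adjusted p = 0.1) or with quantile normalization (adjusted p = 0.097). Gstt3 and Gstz1, named after their values were seen, did not pass in any comparison.

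**Figure D3:**
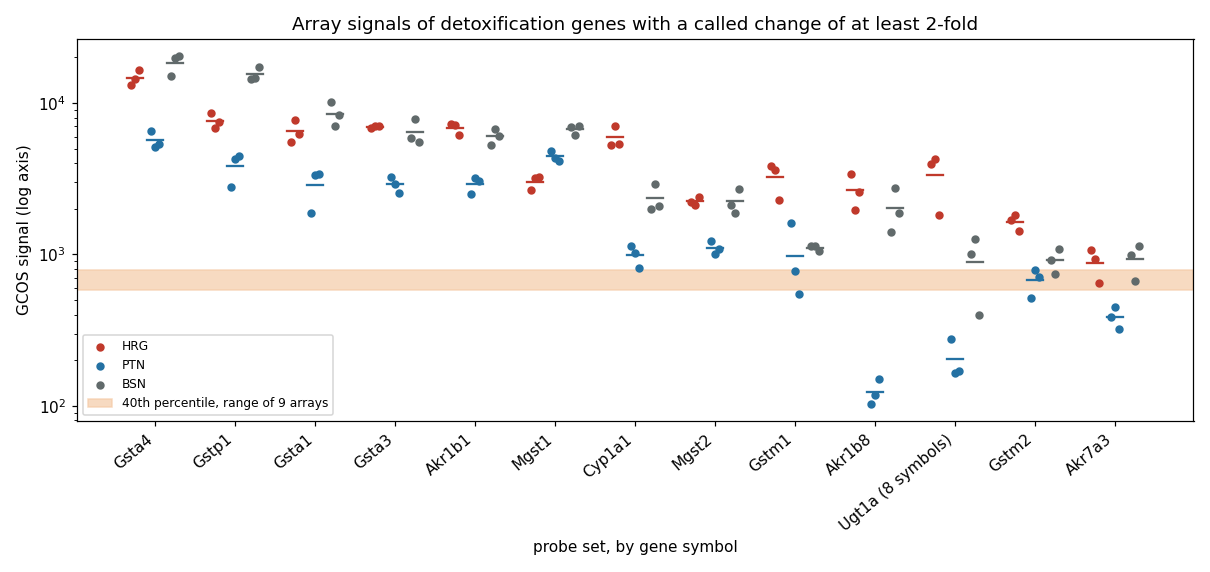
GCOS signal (y axis, log scale) of each array for the 13 probe sets that passed with at least a 2-fold change, with HRG in red, PTN in blue and BSN in grey, a bar at each mean and a band for the range of the arrays' 40th percentiles. PTN arrays lie lowest for the alpha-class transferases, Gstp1, Akr1b1 and Cyp1a1, and HRG arrays lie lowest for Mgst1.

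Among the P450s, Cyp1a1 had the widest difference. Cyp1a1 hydroxylates polycyclic aromatic hydrocarbons and is the classical target gene of AhR. Its signals were 5317, 7095 and 5356 in HRG, 1139, 1025 and 808 in PTN and 1998, 2934 and 2103 in BSN. The media did not overlap and stood in the order HRG, BSN, PTN. Cyp1a1 was 5.9-fold higher in HRG than in PTN (log2 change 2.56, SE 0.19, adjusted p = 1.51e-06), 2.53-fold higher in HRG than in BSN (adjusted p = 0.000368) and 2.33-fold lower in PTN than in BSN (adjusted p = 0.00087).

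The other tested AhR-inducible P450, Cyp1b1, named after its values were seen, averaged 1811 ± 117 in HRG, 1564 ± 377 in PTN and 2063 ± 210 in BSN (SD, n = 3 each). It did not pass in any comparison, and the 95% interval of its log2 change in HRG against PTN was -0.15 to 0.63, below the interval of Cyp1a1, 2.15 to 2.97. Cyp1a2, the third gene of the group, was above the 40th percentile on 2 arrays and was not tested. Of all 18 tested P450 probe sets, 4 were higher and none lower in HRG than in PTN, 1 was higher and 4 were lower in PTN than in BSN, and 2 were higher and none lower in HRG than in BSN. Over all tested probe sets 14.1% were higher and 11.7% lower in HRG than in PTN. The shares were 9.15% higher and 13.4% lower in PTN than in BSN, and 6.92% higher and 8.86% lower in HRG than in BSN.

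Cyp2j4, which epoxidises arachidonic acid, averaged 2339 ± 51.0 in HRG, 1797 ± 202 in PTN and 2637 ± 98.1 in BSN (SD, n = 3 each). It was 1.47-fold lower in PTN than in BSN (adjusted p = 0.00942), which did not pass after median centring (adjusted p = 0.114). Its 1.3-fold higher level in HRG than in PTN (adjusted p = 0.0461) did not pass with the replicate number as a block (adjusted p = 0.0622), on the other scales (adjusted p = 0.204 with median centring and 0.127 with quantile normalization) or without any of 8 of the 9 arrays. Cyp4f6, a fatty acid hydroxylase, was 1.79-fold higher in HRG than in PTN (adjusted p = 0.0157) and 1.89-fold lower in PTN than in BSN (adjusted p = 0.012). The first call ended without HRG replicate 1, HRG replicate 3 or PTN replicate 3 (adjusted p 0.0581 to 0.0769), and the second without BSN replicate 1 (adjusted p = 0.058).

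The tested probe set of Cyp4v3, a fatty acid hydroxylase whose human relative is mutated in a crystalline retinal dystrophy, was lower in BSN than in both other media. It averaged 2687 ± 267 in HRG, 2507 ± 482 in PTN and 1661 ± 197 in BSN (SD, n = 3 each). It was 1.61-fold higher in HRG than in BSN (adjusted p = 0.0115) and 1.49-fold higher in PTN than in BSN (adjusted p = 0.0233). Each call ended without BSN replicate 3 or without 1 other array, HRG replicate 1 for the first and PTN replicate 3 for the second (adjusted p 0.0501 to 0.102). A second Cyp4v3 probe set, too low to be tested, had 689, 671 and 734 in HRG, 564, 554 and 435 in PTN and 613, 533 and 604 in BSN. On it PTN and BSN overlapped and the lowest signal, 435, was in PTN, so a lower level in BSN than in PTN was not seen there. Cyp11a1, which cleaves the side chain of cholesterol as the first step of steroid synthesis, was 1.54-fold higher in HRG than in PTN (adjusted p = 0.0141) and 1.57-fold lower in PTN than in BSN (adjusted p = 0.0135). The first call ended without HRG replicate 3 or PTN replicate 2 and the second without BSN replicate 1 or PTN replicate 2 (adjusted p 0.0501 to 0.0644), and the second also on the other scales (adjusted p 0.0597 with median centring and 0.0751 with quantile normalization).

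Aldo-keto reductases reduce aldehydes and ketones with NADPH. Of 7 tested, 4 were higher and none lower in HRG than in PTN, 3 were lower and none higher in PTN than in BSN, and 1 was higher in HRG than in BSN. Akr1b8, an aldose reductase-like enzyme known in mouse as a gene induced by FGF1 in fibroblasts, had signals of 3387, 1973 and 2583 in HRG, 103, 117 and 149 in PTN and 1410, 2743 and 1880 in BSN. The PTN arrays lay far under the 40th percentile and the other media overlapped each other above it. Akr1b8 passed in HRG against PTN (adjusted p = 4.01e-07) and in PTN against BSN (adjusted p = 4.83e-06), with no fold given because the PTN mean was below the 40th percentile, and HRG against BSN did not pass (adjusted p = 0.346). Every culture, PTN included, contained FGF1, and the part of FGF1 in the Akr1b8 levels was not tested.

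Akr1b1, aldose reductase, which turns glucose into sorbitol, lies next to Akr1b8 on chromosome 4 with no protein-coding gene between them. It had 7216, 7146 and 6106 in HRG, 2522, 3198 and 3054 in PTN and 5296, 6762 and 6056 in BSN. The PTN arrays again lay below all others, 2.33-fold lower than HRG (HRG against PTN adjusted p = 6.6e-05) and 2.06-fold lower than BSN (adjusted p = 0.000487). Akr7a3, an aflatoxin aldehyde reductase, had 1063, 929 and 643 in HRG, 388, 447 and 322 in PTN and 990, 664 and 1143 in BSN. It passed in HRG against PTN (adjusted p = 0.00747) and in PTN against BSN (adjusted p = 0.00675), with the PTN mean below the 40th percentile.

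Akr7a2, the neighbour of Akr7a3 on chromosome 5 and a reductase of succinic semialdehyde, averaged 3596 ± 773 in HRG, 2120 ± 308 in PTN and 2368 ± 319 in BSN (SD, n = 3 each). It was 1.68-fold higher in HRG than in PTN (adjusted p = 0.00767) and 1.5-fold higher in HRG than in BSN (adjusted p = 0.0397). The second call ended when replicate 2 or 3 of BSN, or replicate 1 or 2 of HRG, was left out (adjusted p 0.065 to 0.154). Unlike Akr7a3, it did not pass between PTN and BSN (log2 change -0.16, 95% interval -0.54 to 0.22), and the difference between the neighbours was not tested. Akr1a1, aldehyde reductase, averaged 14636 ± 1050 in HRG, 16103 ± 368 in PTN and 19181 ± 6190 in BSN (SD, n = 3 each) and did not pass in any comparison (adjusted p 0.236 to 0.613).

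Aldehyde dehydrogenases oxidise aldehydes to acids. Of 13 tested probe sets 4 were higher and 2 lower in HRG than in PTN, 1 was higher and 2 were lower in PTN than in BSN, and 2 were higher and 1 lower in HRG than in BSN. Those that passed did not share a direction. Aldh1a1, which makes retinoic acid from retinal, averaged 22735 ± 1870 in HRG, 14659 ± 583 in PTN and 24354 ± 4360 in BSN (SD, n = 3 each). It was 1.55-fold higher in HRG than in PTN (adjusted p = 0.0051) and 1.64-fold lower in PTN than in BSN (adjusted p = 0.00339). Aldh3a2, which clears fatty aldehydes, was 1.78-fold higher in HRG than in PTN (adjusted p = 0.00112) and 1.6-fold lower in PTN than in BSN (adjusted p = 0.00601), which did not pass after median centring (adjusted p = 0.0684).

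Aldh4a1 and Aldh6a1, mitochondrial enzymes that break down proline and valine, were higher in HRG than in both other media. Aldh4a1 averaged 6977 ± 530 in HRG, 4451 ± 801 in PTN and 3685 ± 262 in BSN (SD, n = 3 each), 1.89-fold higher in HRG than in BSN (adjusted p = 0.00119) and 1.58-fold higher in HRG than in PTN (adjusted p = 0.00661, and 0.0505 after median centring). One probe set of Aldh6a1 averaged 6572 ± 831 in HRG, 3750 ± 587 in PTN and 3410 ± 467 in BSN (SD, n = 3 each), 1.92-fold higher in HRG than in BSN (adjusted p = 0.0013) and 1.75-fold higher in HRG than in PTN (adjusted p = 0.00245). The other probe set of Aldh6a1, with HRG and BSN means below the 40th percentile, did not pass in any comparison.

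Aldh2, the mitochondrial enzyme that clears acetaldehyde, went the other way. Its signals were 1044 to 1770 in HRG, 1853 to 2671 in PTN and 1906 to 2488 in BSN. It was 1.6-fold lower in HRG than in PTN (adjusted p = 0.0258) and than in BSN (adjusted p = 0.0362). Both calls were fragile: each ended without any of 4 arrays, among them HRG replicates 1 and 3 (adjusted p 0.0532 to 0.164), and HRG against BSN did not pass on the other scales (adjusted p = 0.0702 with median centring and 0.0514 with quantile normalization). Aldh9a1, which makes the carnitine precursor gamma-butyrobetaine, was the member whose 3 PTN arrays lay above all 6 others. Its signals were 11130, 10082 and 11414 in HRG, 27034, 14352 and 14162 in PTN and 10397, 10103 and 10857 in BSN. PTN replicate 1 stood well above the other PTN arrays. Aldh9a1 was 1.62-fold lower in HRG than in PTN (adjusted p = 0.0243) and 1.69-fold higher in PTN than in BSN (adjusted p = 0.0196), and the first call ended when any HRG array, and the second when any BSN array, was left out (adjusted p 0.0518 to 0.0783). Neither passed with quantile normalization (adjusted p = 0.0527 for the first and 0.0611 for the second).

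Glucuronosyltransferases of the Ugt1a locus make several transcripts that share their downstream exons, and 2 tested probe sets each carried the same 8 Ugt1a symbols and so name no single gene. The first had signals of 3951, 4237 and 1813 in HRG, 278, 163 and 170 in PTN and 1013, 1270 and 397 in BSN. The media did not overlap, and every PTN array was under the 40th percentile, as was BSN replicate 3 (397, with the limit at 788.2). This probe set was 3.84-fold higher in HRG than in BSN (log2 change 1.94, SE 0.41, adjusted p = 0.00632), a fold that includes that low BSN signal. It passed in HRG against PTN (adjusted p = 2.61e-05) and in PTN against BSN (adjusted p = 0.0059). The second probe set had 732, 684 and 708 in HRG, 399, 473 and 457 in PTN and 546, 720 and 649 in BSN, so that HRG and BSN overlapped and PTN lay below both. Of the 3 comparisons it passed in HRG against PTN alone (adjusted p = 0.0438). That call ended when any 1 of the 9 arrays was left out (adjusted p 0.0515 to 0.112), with the replicate block (adjusted p = 0.0581), after median centring (adjusted p = 0.0882) and with quantile normalization (adjusted p = 0.119).

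Ephx1, the microsomal epoxide hydrolase that turns epoxides into diols, averaged 1601 ± 41.2 in HRG, 969 ± 75.1 in PTN and 1167 ± 111 in BSN (SD, n = 3 each). It was 1.64-fold higher in HRG than in PTN (adjusted p = 0.00325). HRG against BSN did not pass (1.37-fold, adjusted p = 0.0536) but passed on the other scales (adjusted p = 0.0282 with median centring and 0.0221 with quantile normalization). None of the 3 tested sulfotransferases, which attach sulfate to phenols and steroids, passed in any comparison. Sult5a1 averaged 3134 ± 79.1 in HRG, 2596 ± 286 in PTN and 2866 ± 627 in BSN (SD, n = 3 each), with 95% intervals of its log2 change from -0.07 to 0.62 in HRG against PTN and from -0.47 to 0.22 in PTN against BSN. Sult1a1 averaged 703 ± 89.1 in HRG, 712 ± 186 in PTN and 727 ± 68.1 in BSN (SD, n = 3 each).

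Of the 77 members that were not tested, 43 were P450s, 11 were sulfotransferases and 9 were glucuronosyltransferases. On 69 of them no array exceeded the 40th percentile, on 5 a single array did and on 3 it was 2 arrays. The median of their median signals was 159.8 and the highest signal on any array was 830.9. The only flavin monooxygenase on the array, Fmo1, and both retinoic acid hydroxylases, Cyp26a1 and Cyp26b1, were among them. Just inside the limit, with 3 arrays above it, were Sult4a1 (lowest, median and highest signal 432.6, 689.3 and 773.7) and Gstm7 (391.0, 636.8 and 937.9). Just outside, with 2 arrays, were Ugt2b7 (499.7, 616.5 and 799.6), a second probe set of Cyp4v3 (435.0, 604.0 and 734.4) and Cyp1a2 (177.3, 513.1 and 825.3). These edge members are named for their place at the limit.

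**Figure D4:**
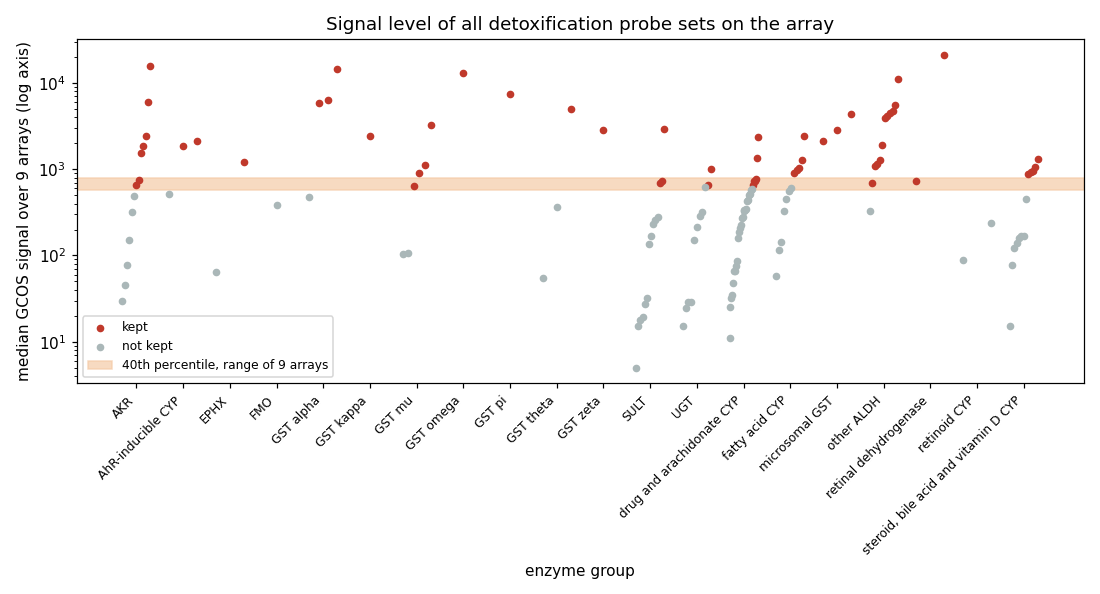
Median GCOS signal over 9 arrays (y axis, log scale) of all 136 detoxification probe sets by enzyme group (x axis), with the 59 tested in red, the 77 others in grey and a band for the range of the arrays' 40th percentiles. Points show where a probe set lies relative to the band and not how much RNA of one gene there is relative to another; all 3 microsomal transferases and 3 of 14 sulfotransferases are red.

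Genes that sense foreign compounds or support these enzymes were counted from lists drawn up by function, some of which share genes. Over all tested probe sets 14.1% were higher and 11.7% lower in HRG than in PTN. The shares were 9.15% higher and 13.4% lower in PTN than in BSN, and 6.92% higher and 8.86% lower in HRG than in BSN. The list counts here and below stand beside these shares, some lie near them, and no list was tested as a set. Of 10 tested receptors and partners, 1 was higher and 1 lower in HRG than in PTN, 1 was higher and 1 lower in PTN than in BSN, and 1 was higher and 2 lower in HRG than in BSN. Ahr itself averaged 951 ± 137 in HRG, 760 ± 153 in PTN and 1073 ± 122 in BSN (SD, n = 3 each), and did not pass in any comparison (adjusted p = 0.254 in HRG against PTN, 0.0883 in PTN against BSN, where it passed without PTN replicate 1 at 0.0233, and 0.63 in HRG against BSN). Arnt2, a relative of the AhR partner Arnt, averaged 1366 ± 54.0 in HRG, 6761 ± 1700 in PTN and 4438 ± 737 in BSN (SD, n = 3 each). It was 4.81-fold lower in HRG than in PTN (adjusted p = 2.51e-06) and 3.2-fold lower in HRG than in BSN (adjusted p = 4.32e-05). Its call in PTN against BSN (1.5-fold higher, adjusted p = 0.0323) ended without any of 4 arrays (adjusted p 0.0538 to 0.127). Mafg, a small Maf protein that pairs with Nrf2, was 1.67-fold lower in PTN than in BSN (adjusted p = 0.00209). It was also 1.36-fold lower in HRG than in BSN (adjusted p = 0.0383), a call that ended without any of 6 arrays (adjusted p 0.0516 to 0.146), after median centring (adjusted p = 0.143) and with quantile normalization (adjusted p = 0.0584). Pparg, a nuclear receptor for fatty acids, averaged 1674 ± 47.7 in HRG, 589 ± 211 in PTN and 560 ± 188 in BSN (SD, n = 3 each), and passed against PTN (adjusted p = 0.00176) and against BSN (adjusted p = 0.00208).

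Beside Cyp1a1, 3 AhR target genes from other families were tested: 2 were higher in HRG than in PTN, and 1 was lower in PTN than in BSN. None of the 3 passed in HRG against BSN, where Cyp1a1 was higher in HRG. Tiparp, an AhR repressor, was 1.55-fold higher in HRG than in PTN (adjusted p = 0.0171), a call that ended without HRG replicate 2 (adjusted p = 0.0682) and after median centring (adjusted p = 0.105). Nrf2 itself, listed as Nfe2l2, averaged 28781 ± 4680 in HRG, 24514 ± 1540 in PTN and 27526 ± 2810 in BSN (SD, n = 3 each) and did not pass in any comparison, and Keap1 did not pass either.

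Of 13 tested Nrf2 target genes outside these families, 8 were higher and 1 lower in HRG than in PTN, 8 were lower and none higher in PTN than in BSN, and 2 were lower in HRG than in BSN. The list's median log2 change was 0.62 in HRG against PTN and -0.77 in PTN against BSN, beside 0.08 and -0.11 over all tested probe sets. Nqo1, a quinone reductase that both AhR and Nrf2 induce, was 2.79-fold lower in PTN than in BSN (adjusted p = 0.000103). Gclc, the catalytic subunit of the enzyme that starts glutathione synthesis, was 1.71-fold lower in PTN than in BSN (adjusted p = 0.0054) and 1.54-fold higher in HRG than in PTN (adjusted p = 0.0134, and 0.058 to 0.0646 without HRG replicate 3 or PTN replicate 3). Hmox1, heme oxygenase 1, averaged 2171 ± 349 in HRG, 1297 ± 76.3 in PTN and 2508 ± 250 in BSN (SD, n = 3 each), 1.92-fold lower in PTN than in BSN (adjusted p = 0.00115). Gclm, the modifier subunit of the same enzyme as Gclc, was 1.6-fold higher in HRG than in PTN (adjusted p = 0.00539) and did not pass in PTN against BSN (adjusted p = 0.0739). Mt2A, a metallothionein, was the gene of the list that was lower in HRG than in PTN, 2.76-fold lower in HRG than in PTN (adjusted p = 0.000105) and 3.52-fold lower in HRG than in BSN (adjusted p = 3.16e-05). The other gene lower in HRG than in BSN was Tkt, transketolase, at 2.25-fold (adjusted p = 0.00175).

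Of 9 tested genes of the P450 electron supply and heme pathway, 5 were higher in HRG than in PTN, 3 were higher in HRG than in BSN and 1 was lower in PTN than in BSN. Cyb5b, a cytochrome b5, was 2.1-fold higher in HRG than in BSN (adjusted p = 0.0008) and 1.75-fold higher in HRG than in PTN (adjusted p = 0.0035). Por, the P450 reductase that feeds electrons to microsomal P450s, averaged 757 ± 88.7 in HRG, 554 ± 157 in PTN and 310 ± 37.9 in BSN (SD, n = 3 each), with PTN and BSN below the 40th percentile, and passed in HRG against BSN (adjusted p = 0.00883, and 0.0506 without HRG replicate 3). PTN against BSN did not pass for Por (adjusted p = 0.0661), but passed as higher in PTN after median centring (adjusted p = 0.0308) and with quantile normalization (adjusted p = 0.0264). Of 10 tested genes that supply cosubstrates, 2 were higher and none lower in HRG than in PTN, 1 was lower in PTN than in BSN, and 2 were higher and 1 lower in HRG than in BSN. Those higher in HRG than in BSN were Ugdh, which makes UDP-glucuronic acid (1.44-fold, adjusted p = 0.0142), and Papss1, which makes the sulfate donor (1.4-fold, adjusted p = 0.025). Both calls ended without some arrays, 3 for Ugdh and 4 for Papss1 (adjusted p 0.052 to 0.128). The gene lower in HRG than in BSN was Cbs, named after its values were seen. Of 5 tested transporters 3 were higher in HRG than in PTN, 1 was lower in PTN than in BSN and 1 was higher in HRG than in BSN. Abcc1, which exports glutathione conjugates, was 2.08-fold higher in HRG than in PTN (adjusted p = 0.00493) and 1.82-fold lower in PTN than in BSN (adjusted p = 0.0179, and 0.0515 to 0.0768 without BSN replicate 1, BSN replicate 3 or PTN replicate 3). The other 2 that were higher in HRG than in PTN were Abcc5, a pump for cyclic nucleotides and conjugates (1.41-fold, adjusted p = 0.0234), and Slco2a1, a prostaglandin uptake carrier (1.44-fold, adjusted p = 0.049). The Abcc5 call ended when any HRG array was left out (adjusted p 0.0594 to 0.0698) and after median centring (adjusted p = 0.132). The Slco2a1 call ended without any of 7 arrays (adjusted p 0.0628 to 0.186), after median centring (adjusted p = 0.0769) and with quantile normalization (adjusted p = 0.0758). Slco2a1 was also the transporter higher in HRG than in BSN, 1.76-fold (adjusted p = 0.00841).

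Of 12 tested phase 1 and phase 2 enzymes of other families, 1 was higher and 3 lower in HRG than in PTN, 1 was higher and 2 lower in PTN than in BSN, and 1 was higher and 3 lower in HRG than in BSN. Cbr3, a carbonyl reductase, averaged 134 ± 167 in HRG, 1102 ± 230 in PTN and 1302 ± 302 in BSN (SD, n = 3 each), and passed against PTN (adjusted p = 0.000727) and against BSN (adjusted p = 0.000705). Tpmt, which methylates thiopurines, was 2.26-fold lower in HRG than in BSN (adjusted p = 6.01e-05) and 1.54-fold lower in HRG than in PTN (adjusted p = 0.00389). Nqo2, a quinone reductase, was 2.26-fold higher in HRG than in PTN (adjusted p = 0.000614) and 2.04-fold higher in HRG than in BSN (adjusted p = 0.00235). Adh5, which oxidises the glutathione adduct of formaldehyde, was 1.41-fold lower in HRG than in PTN (adjusted p = 0.0101). Of 8 tested genes of retinoid handling and response, 2 were higher and 4 lower in HRG than in PTN, 3 were higher and 2 lower in PTN than in BSN, and 1 was higher and 1 lower in HRG than in BSN. Crabp2, which carries retinoic acid to its receptors, was 2.79-fold higher in HRG than in PTN (adjusted p = 1.08e-05), and Rarb, a retinoic acid receptor and target, was 1.75-fold lower in HRG than in PTN (adjusted p = 0.000986). Tgm2, a transglutaminase that retinoic acid induces, was 3.22-fold higher in HRG than in PTN (adjusted p = 1.45e-05) and 3.5-fold lower in PTN than in BSN (adjusted p = 2.63e-05). Ret, which is also on the list as a target of retinoic acid signalling, had the largest change on it, 20.3-fold lower in HRG than in PTN (adjusted p = 4.14e-09) and 14.5-fold lower in HRG than in BSN (adjusted p = 1.8e-08). Its 1.4-fold higher level in PTN than in BSN (adjusted p = 0.0424) ended without any of 6 arrays (adjusted p 0.057 to 0.16), with the replicate block (adjusted p = 0.0519) and with quantile normalization (adjusted p = 0.15). Genes of this list therefore ran in both directions between HRG and PTN, where Aldh1a1 was higher in HRG.

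Markers of the tissue and of other cell types were read in the same arrays. All 8 ureteric bud markers on the array were tested, and their summed signal was 135470 to 152400 in HRG, 121300 to 138730 in PTN and 143670 to 156290 in BSN. Most of these sums came from Epcam and the keratins Krt8 and Krt18. Within the list 3 were higher and 2 lower in HRG than in PTN, 1 was higher and 3 were lower in PTN than in BSN, and none was higher and 2 were lower in HRG than in BSN. Ret, the GDNF receptor of the bud tip, had signals of 1112, 851 and 790 in HRG, 19681, 18578 and 18010 in PTN and 11483, 15204 and 13848 in BSN. Lhx1, a transcription factor of the bud, had 2367, 1698 and 1656 in HRG, 5802, 4279 and 4119 in PTN and 4474, 5018 and 5026 in BSN. For both genes the HRG arrays lay below all others. The bud markers Cdh16, Krt8 and Krt18 instead had all PTN arrays below all others. Cdh16 had 7582, 6731 and 8541 in HRG, 4517, 4809 and 4527 in PTN and 6910, 9195 and 7233 in BSN. Krt8 ran from 23224 to 23922 in HRG, 13203 to 18390 in PTN and 19181 to 20470 in BSN. Krt18 ran from 27717 to 32195 in HRG, 13070 to 21372 in PTN and 27486 to 29784 in BSN. Of 7 mesenchyme and stroma markers 3 were tested and none passed, with sums of 2596 to 3313 in HRG, 2865 to 3491 in PTN and 2876 to 3531 in BSN. Proximal tubule, where many of these enzymes are found in the mature kidney, had 1 of 5 markers tested, Lrp2, and the sums were 5157 to 7051 in HRG, 3097 to 3531 in PTN and 2467 to 3420 in BSN. Lrp2 was higher in HRG than in both other media, whereas Slc34a1, Cubn, Slc5a2 and Fbp1 were not above the limit for testing. Endothelium had 1 tested marker, Kdr, lower in HRG than in PTN and BSN, with sums of 547 to 797 in HRG, 942 to 1302 in PTN and 1036 to 1068 in BSN. Blood and liver each had 1 tested marker that did not pass. The part of these cell types in the results was not tested.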

How the data were processed

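The authors deposited one table of GCOS signal intensities for 9 arrays on a linear scale; GCOS is named per the submitters' processing notes with no version. The deposited intensity values had a trimmed mean of 2500.48 to 2500.58 on every array, so no scaling was added. Of 15923 probe sets 57 controls were set aside. Arrays of a medium are biological replicates per the series design, and their number (3 per medium) limits precision.

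Kept were 10106 probe sets that exceeded the 40th percentile of the array's signals on 3 or more arrays. Signals were taken as log2(signal + 16) and fitted with limma 3.58.1 in R 4.3.3 (lmFit, eBayes with intensity trend), all 9 arrays in one fit with 6 residual degrees of freedom, 12.7 after moderation. Gene symbols came from the platform's table. A probe set was written without a fold where a group's mean lay below its arrays' 40th percentile. Members and lists were chosen with earlier results of these data known.

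Named genes were the members that passed, 4 preset markers (Cyp1a1, Gstp1, Gsta3, Gstm1), the 2 brightest tested genes of each family and, of each list, up to 4 genes that passed. Deviations from the group means correlated between HRG and PTN arrays with one replicate number at r 0.266, 0.332 and 0.118. Between HRG and BSN r was -0.055 to 0.13, and between PTN and BSN -0.097 to -0.011. The labels state no pairing, arrays with different numbers were not compared, and the cause was not tested. In simulated data for the 10106 probe sets, changes were planted in HRG alone, in 50 probe sets for each size. A log2 change of 1 was recovered for 90% of them in HRG against BSN and for 86% in HRG against PTN. A change of 0.5 was recovered for 4% and 6%. Far fewer probe sets changed there than passed in the data, which makes the adjusted threshold stricter, so these shares do not give the recovery in the data. PTN against BSN had no planted change and so no recovery share. Alternatives were 2 other scalings, pseudocounts of 1 and 64, no filter, a 60th percentile filter, no trend, array weights, only the groups compared, 1 probe set per gene, the replicate block and each array left out in turn. A planned comparison of protein sequences was not run.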

Additional observations from a re-analysis of the deposited data

How the results depend on the processing

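The total number of members called in each comparison stayed within 1.5 times under every alternative run, and no named probe set changed direction while called. In HRG against BSN 7 of 11 member calls passed in every alternative that tested their probe set. By the same count 20 of 28 held in HRG against PTN and 12 of 20 in PTN against BSN. The 60th percentile filter left some of these probe sets untested. With that filter 10, 22 and 17 members passed in HRG against BSN, HRG against PTN and PTN against BSN. Of all probe sets tested with it, 1400, 2263 and 1990 passed. With each array left out in turn, 8 to 14, 21 to 27 and 16 to 24 members passed in these comparisons. Of all tested probe sets 1053 to 2225, 1882 to 3109 and 1358 to 3222 then passed. By direction the small counts moved more: with 1 array left out, HRG against BSN gave 5 to 10 members higher (5 without HRG replicate 1) and 2 to 4 lower, HRG against PTN 1 to 3 lower (1 without HRG replicate 1 or 3), and PTN against BSN 0 to 3 higher (0 without BSN replicate 3), and with array weights PTN against BSN gave 4 higher. With the replicate block 13, 26 and 20 passed, and among all tested probe sets 1641, 2690 and 2362; beyond the members described above, it ended the calls of 2 list genes, the GDNF receptor gene Ret in PTN against BSN (adjusted p = 0.0519) and Mafg in HRG against BSN (adjusted p = 0.0516). Over all tested probe sets, the count in HRG against BSN was 2439 with array weights and 1053 to 2225 with 1 array left out, and in PTN against BSN 3480 with array weights and 1358 to 3222 with 1 array left out; the cause was not tested. The lowest counts came without HRG replicate 3 and without BSN replicate 3. Median centring turned the balance of all calls, to 1598 higher and 645 lower in PTN against BSN and 943 higher and 1452 lower in HRG against PTN. Signals near the 40th percentile limit what can be read for the 77 members not tested. Without the filter, 4 of them passed in HRG against BSN, 5 in HRG against PTN and 2 in PTN against BSN. Of all 15866 probe sets, 1449, 2342 and 2044 passed in these comparisons without the filter.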
